A study of Triticum aestivum with 12 samples.

Results

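The 2 wheat florigen genes FT1 (also called VRN3) and FT2 were followed through vernalization as their 6 homoeologues, and their listed levels differed. FT2 was induced in the shoot apex, where all of its homoeologues passed 1 TPM after vernalization and none passed 0.05 TPM before it. FT1 was listed at 0 in nearly every library of every tissue. The members were taken by identifier. They were FT1-A (TraesCS7A02G115400), FT1-B (TraesCS7B02G013100) and FT1-D (TraesCS7D02G111600) on chromosomes 7A, 7B and 7D, and FT2-A (TraesCS3A02G143100), FT2-B (TraesCS3B02G162000) and FT2-D (TraesCS3D02G144500) on chromosomes 3A, 3B and 3D. All 6 were present among the 107891 genes of each library. TPM is a level scaled for gene length and library total.

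The 12 RNA-seq libraries came from the winter wheat cultivar AK58 and formed 6 groups of 2, namely vernalized leaf, vernalized axillary bud and vernalized shoot apex, and leaf, axillary bud and shoot apex without vernalization. Non-vernalized plants were grown for 2 weeks under 16 h of light at 22 °C and 8 h of dark at 19 °C. Vernalized plants were grown for 2 weeks too. They then spent 1 month at 4 °C with the same hours of light and 1 day in the greenhouse. They were therefore also older, and cold, age and the return to warmth cannot be told apart. The study calls its replicates biological, but neither it nor the labels say whether the 2 libraries of a group came from separate plants or pools, so p-values measure the spread between these libraries. In such bulk samples, fewer cells of a type and less RNA per cell cannot be told apart.

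FT genes encode small proteins of the phosphatidylethanolamine-binding family. In Arabidopsis and in cereals, FT protein made in the leaf moves through the phloem to the shoot apex, binds a bZIP factor of the FD type there, and the complex activates genes of floral identity. In winter wheat FT1 is the gene known as VRN3, a promoter of flowering that is held low in leaves by VRN2 before vernalization and is raised under long days once VRN1 has been activated. FT2 is a close paralogue, known in wheat for its influence on spike development and on the number of spikelets.

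Sequences were at hand for short probes from accessible chromatin upstream of VRN3, which the study tested for binding by TaSPL7A, a factor of the SPL family. They are shown because they are the part of the candidate regulatory DNA of FT1 whose sequence was given. Capitals mark GTAC, the core of the site bound by SPL factors, which reads the same on both strands.
P2: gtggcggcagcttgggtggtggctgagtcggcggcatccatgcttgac
P3: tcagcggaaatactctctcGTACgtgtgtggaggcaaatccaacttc
P4: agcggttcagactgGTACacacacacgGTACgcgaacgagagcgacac
GTAC occurred once in P3, at base 20 of 47, and at bases 15 and 28 of the 48 in P4, counted from the 5′ end. It was not among the letters of P2 as listed, although the study describes its probes as containing GTAC. The study reports that TaSPL7 and TaSPL15 bound the distal elements of VRN3, which was not tested here. Of the 6 wild-type probes listed by the study, 5 held GTAC, so that the match is a description of chosen probes and not a site found here.

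The question for FT2 was whether it answered vernalization, and in which tissue. FT2-D had 6.69 and 4.92 TPM in vernalized shoot apex (mean 5.80 ± 1.25, SD, n = 2), while both shoot apex libraries listed it at 0. FT2-A had 5.41 and 4.07 TPM in vernalized shoot apex (mean 4.74 ± 0.946), against 0.0243 and 0.0386 TPM in shoot apex. FT2-B was the lowest of the 3, with 1.39 and 1.30 TPM in vernalized shoot apex (mean 1.35 ± 0.0635), while both shoot apex libraries listed it at 0. For every homoeologue both vernalized libraries stood above both non-vernalized ones, which held for 8.59% of all tested genes in shoot apex. Summed over the homoeologues, FT2 reached 13.5 and 10.3 TPM in vernalized shoot apex, against 0.0243 and 0.0386 TPM in shoot apex. The ratio of the means was 378 for the sum (267 to 554 between single libraries) and 151 for FT2-A (106 to 222). Both rest on the traces of FT2-A in shoot apex, and no ratio is given for FT2-B and FT2-D, whose shoot apex libraries were at 0.

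**Figure D1:**
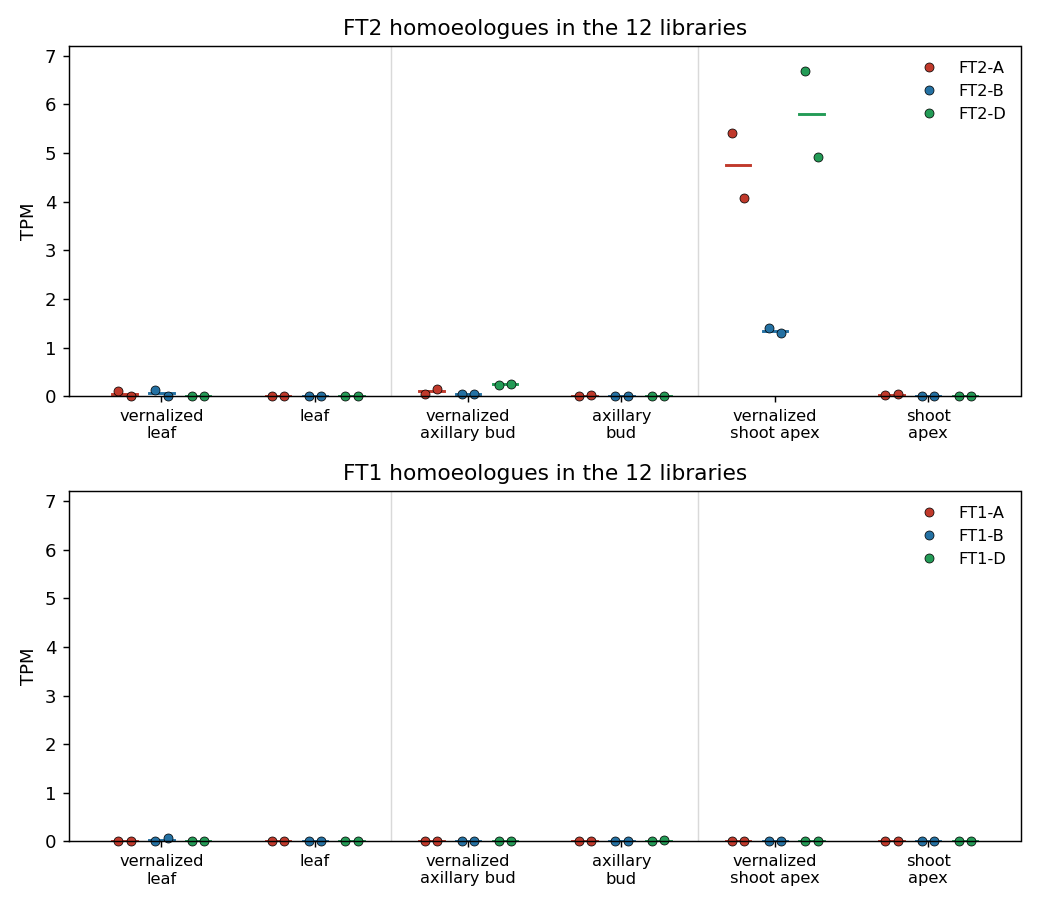
TPM of the FT2 homoeologues (top) and the FT1 homoeologues (bottom) in the 6 groups. Points are libraries, bars are the means of 2 libraries, and colours are the subgenomes. The FT2 points of vernalized shoot apex lie between 1.30 and 6.69 TPM, all other FT2 points are at most 0.254 TPM, and all FT1 points lie at or near 0.

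These differences were tested with limma on log2(TPM + 1), in a single model of the 12 libraries, over 60326 genes whose mean passed 1 TPM in some group. A gene was called at a Benjamini-Hochberg adjusted p-value under 0.05 with more than a 2-fold difference. FT2-D rose by 2.75 on this log2 scale in vernalized shoot apex relative to shoot apex (standard error 0.14, adjusted p = 7.03e-07 from limma). FT2-A rose by 2.47 (standard error 0.14, adjusted p = 1.59e-06) and FT2-B by 1.23 (standard error 0.11, adjusted p = 3.84e-05). Of all tested genes, 0.991% were called higher in vernalized shoot apex. The FT2 genes entered the test only through this group, so the number of them called carries no weight of its own. FT2-D ranked 32, FT2-A 49 and FT2-B 425 from the top among the responses of all tested genes in shoot apex. The model pools the spread over 6 groups, several of which are at or near 0 for these genes. When only the 4 libraries of this tissue were fitted, the adjusted p-values were 0.00518 for FT2-D, 0.00698 for FT2-A and 0.0347 for FT2-B. The added 1 compresses changes of low genes, and with a pseudocount of 0.1 the same responses were 5.87, 5.19 and 3.86 on the log2 scale.

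**Figure D2:**
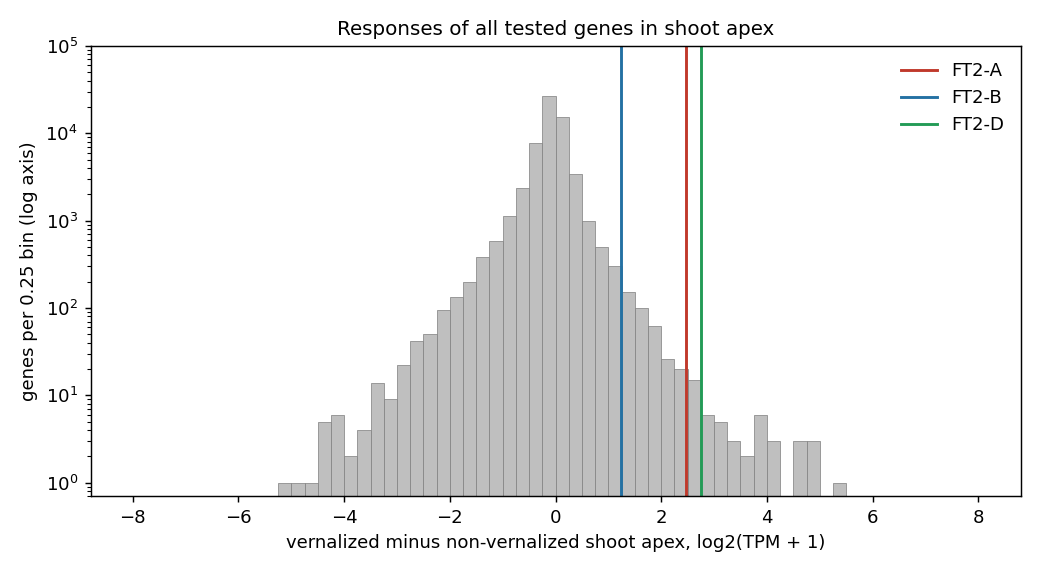
Number of tested genes (log axis) by their difference between vernalized and non-vernalized shoot apex on the log2(TPM + 1) scale, in bins of 0.25. Vertical lines mark the FT2 homoeologues, at 1.23 for FT2-B, 2.47 for FT2-A and 2.75 for FT2-D, all in the upper tail of the distribution.

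In vernalized shoot apex FT2-D and FT2-A stood above most genes with a value above 0, and FT2-B stood below most of them. Of the values above 0 in the 2 libraries, 72.6% and 72.9% were lower than FT2-D. For FT2-A these shares were 67.8% and 69.2%, and for FT2-B 37.4% and 44.2%. Shares over all genes also count those listed at 0. In the 2 libraries of this group, 17.2% and 17.1% of all genes had a higher TPM than FT2-D, 20.2% and 19.5% had a higher TPM than FT2-A, and 39.2% and 35.3% had a higher TPM than FT2-B. The homoeologues contributed unequally to the sum. FT2-D supplied 49.6% and 47.8% of the FT2 transcripts in vernalized shoot apex, FT2-A 40.1% and 39.6%, and FT2-B 10.3% and 12.7%. FT2-D was 4.80 and 3.77 times as abundant as FT2-B in these libraries, and 1.24 and 1.21 times as abundant as FT2-A. The order D, A, B was the same in both libraries, but FT2-A in the first library exceeded FT2-D in the second, so that the levels of FT2-A and FT2-D overlapped. Reads of near-identical homoeologues can be assigned to the wrong copy, and the assignment at these genes was not tested.

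In axillary bud the FT2 transcripts stayed at traces. FT2-D had 0.231 and 0.254 TPM in vernalized axillary bud, while both axillary bud libraries listed it at 0. FT2-A had 0.0426 and 0.158 TPM in vernalized axillary bud, against 0 and 0.0258 TPM in axillary bud. FT2-B had 0.0376 and 0.0488 TPM in vernalized axillary bud, and was listed at 0 in both axillary bud libraries. All 3 homoeologues were above 0 in both vernalized libraries and did not overlap the non-vernalized ones, as was so for 59.0% of all tested genes in axillary bud. FT2-D differed by 0.31 on the log2(TPM + 1) scale (95% confidence interval 0.01 to 0.62, adjusted p = 0.119 from limma), FT2-A by 0.12 (-0.19 to 0.42, adjusted p = 0.572) and FT2-B by 0.06 (-0.17 to 0.29, adjusted p = 0.713). None was called, where 11.6% of all tested genes were called higher and 3.43% lower in vernalized axillary bud (6.34% and 5.40% after rescaling by the median of ratios). At an unadjusted p-value under 0.05, 1 of the 3, FT2-D, would pass, and the share of all tested genes that would pass was not counted. With a pseudocount of 0.1, which gives more weight to such traces, FT2-D differed by 1.77 and was called (adjusted p = 0.00134 from limma), while FT2-A and FT2-B were not.

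In leaf the FT2 transcripts came from a single library. Vernalized leaf replicate 1 had 0.110 TPM of FT2-A, 0.119 TPM of FT2-B and 0.0143 TPM of FT2-D, and vernalized leaf replicate 2 listed all 3 at 0. Both leaf libraries without vernalization also listed all 3 at 0. The difference between vernalized leaf and leaf was 0.07 for FT2-A (95% confidence interval -0.23 to 0.38), 0.08 for FT2-B (-0.15 to 0.31) and 0.01 for FT2-D (-0.29 to 0.31) on the log2 scale. None was called (adjusted p-values of 0.505 to 0.966 from limma), where 12.5% of all tested genes were called higher and 46.6% lower in vernalized leaf (23.6% and 17.3% after rescaling). Of the 3, 0 had an unadjusted p-value under 0.05, and the share of all tested genes under it was not counted. Without vernalized leaf replicate 1 no FT2 transcript would remain in leaf.

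**Figure D3:**
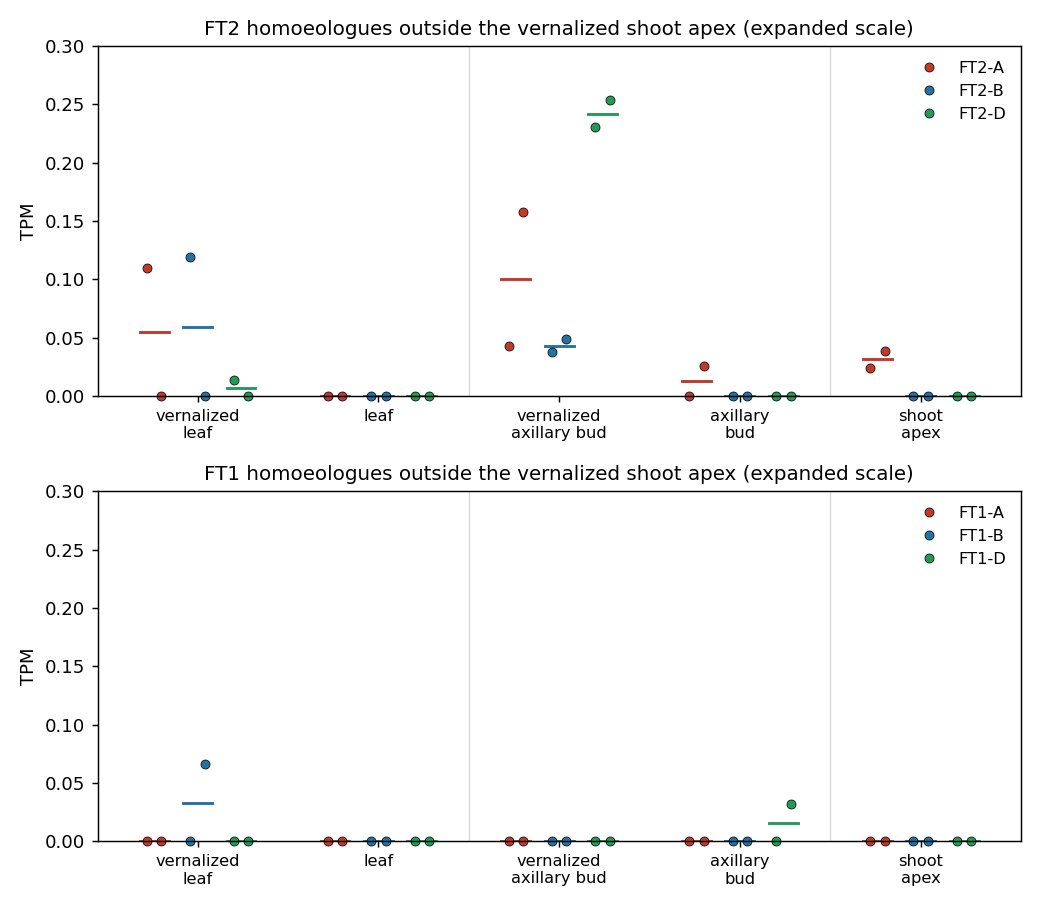
TPM of the FT2 homoeologues (top) and the FT1 homoeologues (bottom) outside the vernalized shoot apex, on an axis that ends at 0.3 TPM. Points are libraries and bars the means of 2. FT2-D in vernalized axillary bud is the highest at 0.231 and 0.254 TPM, the vernalized leaf values of FT2 come from 1 library, and FT1 is above 0 in 2 libraries.

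The response of FT2 was tested for a difference between tissues. The response in axillary bud minus that in shoot apex was -2.44 for FT2-D (standard error 0.20, adjusted p = 6.41e-06 from limma), -2.35 for FT2-A (adjusted p = 8.55e-06) and -1.17 for FT2-B (adjusted p = 0.000178), and 3.20% of all tested genes were called in this direction (5.22% after rescaling). The response in leaf minus that in shoot apex was -2.74 for FT2-D (adjusted p = 8.92e-07), -2.39 for FT2-A (adjusted p = 2.37e-06) and -1.15 for FT2-B (adjusted p = 6.24e-05). Here 43.6% of all tested genes were called in the same direction, so the call in leaf is a common one on the deposited scale. That share depends on the scaling, and after rescaling by the median of ratios 18.1% were called lower and 24.2% higher, against 43.6% and 13.8% as deposited. Between leaf and axillary bud the responses differed by -0.30 for FT2-D (95% confidence interval -0.73 to 0.13), -0.04 for FT2-A (-0.47 to 0.39) and 0.02 for FT2-B (-0.31 to 0.35), with adjusted p-values of at least 0.177 from limma. An unadjusted p-value under 0.05 was reached by 0 of 3, and the share of all tested genes under it was not counted. Between these tissues 67.2% of all tested genes were called in either direction. After rescaling 21.9% were called higher and 18.4% lower in leaf. With a pseudocount of 0.1 the FT2-D difference was -1.68 and was called (adjusted p = 0.00386 from limma). The 2 comparisons with shoot apex share its 4 libraries and are not independent. Here too the FT2 genes entered the test only through vernalized shoot apex, so the number of calls carries no weight of its own.

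The same order held for levels after vernalization. On the log2(TPM + 1) scale, FT2-D in vernalized axillary bud minus vernalized shoot apex was -2.44 (adjusted p = 3.10e-07 from limma), and in vernalized leaf minus vernalized shoot apex -2.74 (adjusted p = 7.84e-09). For FT2-A these differences were -2.38 (adjusted p = 4.04e-07) and -2.44 (adjusted p = 2.08e-08), and for FT2-B -1.17 (adjusted p = 1.18e-05) and -1.15 (adjusted p = 1.14e-06). The background was 2.64% of tested genes called lower in vernalized axillary bud and 35.7% called lower in vernalized leaf. As the FT2 genes entered the test only through vernalized shoot apex, the number of these calls carries no weight either. In linear terms the summed FT2 level of vernalized shoot apex was 30.9 times that of vernalized axillary bud, and between the single libraries this ratio lay between 22.4 and 43.4. Below vernalized shoot apex, the means of the summed level followed the order vernalized axillary bud (0.385 TPM), vernalized leaf (0.121), shoot apex (0.0315), axillary bud (0.0129) and leaf (0). From vernalized leaf down, the libraries of each group overlapped those of the next in this order, so that these levels are not separated. Between vernalized leaf and vernalized axillary bud the libraries of the summed level did not overlap, at 0.243 and 0 TPM against 0.311 and 0.460 TPM, and no homoeologue was called (adjusted p-values of 0.0617 to 0.868 from limma, 0 of 3 with an unadjusted p-value under 0.05), where 64.8% of all tested genes were called. With a pseudocount of 0.1 FT2-D was called here too, at -1.68 (adjusted p = 0.000280 from limma). Before vernalization FT2-B and FT2-D were at 0 in all 6 libraries, so that the tissues could not be compared, and FT2-A did not pass the test between any tissues (adjusted p-values of at least 0.796 from limma).

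FT1 was listed at or near 0 throughout. Of its 36 values, 34 were listed at 0, and 10 of the 12 libraries listed all 3 homoeologues at 0. FT1-A was at 0 throughout. FT1-B had 0.0664 TPM in vernalized leaf replicate 2 and was at 0 in vernalized leaf replicate 1 and in both leaf libraries. FT1-D had 0.0322 TPM in axillary bud replicate 2 and was at 0 in axillary bud replicate 1 and in both vernalized axillary bud libraries. Of the values above 0 in these 2 libraries, 10.5% were lower than that of FT1-B and 4.26% lower than that of FT1-D. All 4 shoot apex libraries, vernalized or not, listed every FT1 homoeologue at 0.

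No FT1 homoeologue reached the mean of 1 TPM needed for the test. Without that filter FT1-B and FT1-D could be fitted, and FT1-A, at 0 in every library, could not. FT1-B differed between vernalized leaf and leaf by 0.05 on the log2(TPM + 1) scale (95% confidence interval -0.02 to 0.11, adjusted p = 0.207 from limma). FT1-D differed between vernalized axillary bud and axillary bud by -0.02 (95% confidence interval -0.07 to 0.02, adjusted p = 0.515). An induction of FT1 was therefore not detectable in these tables, which does not show that it was absent. TPM carry no information on sequencing depth, and the study's own sequencing statistics were not used here. No upper limit was therefore set on a level listed at 0, and a 0 can also be a failed estimate. The reads at the FT1 loci were not analysed here, so that a lack of transcripts and a loss of reads in mapping or counting cannot be told apart. The study's summary scheme has VRN3 expression rising during vernalization, and a supplementary figure gives it in leaf, axillary bud and shoot apex. The FT1 values listed here showed no detectable rise, and the reason for this difference was not tested. The study also followed VRN3 by RT-qPCR, which was not used here. It reports little response of VRN3 during the cold, with a response beginning only once the cold had ended. That time course compared mutants of SPL genes with their wild type, a cultivar other than AK58. Its cold was shorter, and its sample after the cold was taken later. The vernalized libraries here were taken 1 day after the cold. Whether timing, length of cold or cultivar bears on the FT1 values was not tested. For scale, FT2-D was recorded down to 0.0143 TPM, and between 32.1% and 39.6% of all genes were listed at 0 in a library.

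The factors TaSPL7 and TaSPL15, which the study tested for binding near VRN3, were set beside the FT genes. They belong to the SPL family, whose members promote flowering with plant age and are restrained by a microRNA. In shoot apex 2 of the 6 TaSPL7 and TaSPL15 genes were called higher after vernalization, where 0.991% of all tested genes were. TaSPL7D had 12.8 and 13.0 TPM in vernalized shoot apex, against 2.55 and 3.01 TPM in shoot apex (adjusted p = 0.000974 from limma). TaSPL7B had 8.47 and 8.30 TPM in vernalized shoot apex, against 3.06 and 2.41 TPM in shoot apex (adjusted p = 0.00221 from limma). TaSPL7A had 10.7 and 8.40 TPM in vernalized shoot apex, against 4.71 and 3.45 TPM in shoot apex, a difference of 1.05 on the log2(TPM + 1) scale that was not called after adjustment (adjusted p = 0.111 from limma) but passed the unadjusted rule of a p-value under 0.01 and 2-fold. The share of all tested genes passing that unadjusted rule is not given here, so the pass carries no weight of its own. The median response of the 6 genes in shoot apex was 0.67 on the log2(TPM + 1) scale, against -0.06 for all tested genes. In axillary bud their median was 0.79 (all tested genes 0.29) and in leaf -0.25 (all tested genes -0.90), with 0 of 6 called in either. After rescaling by the median of ratios the leaf median of all tested genes was -0.02, and that of the 6 was not computed. TaSPL7A and the TaSPL15 genes were listed at 0 in both vernalized leaf libraries, and TaSPL7B and TaSPL7D at no more than 0.0560 TPM. TaSPL15D had the lowest adjusted p-value of the 6 in leaf (0.0399 from limma) and missed the 2-fold limit at -0.37. In axillary bud 4 of the 6 had an adjusted p-value under 0.05 and missed only the 2-fold limit on this scale. The share of all tested genes under 0.05 there was not counted, so this number carries no weight of its own. Both vernalized axillary bud libraries stood above both others for 59.0% of all tested genes. The median of all tested genes in axillary bud was 0.29 as deposited and 0.05 after rescaling by the median of ratios. The 4 genes differed by 0.78 for TaSPL15A, 0.98 for TaSPL15B, 0.95 for TaSPL15D and 0.80 for TaSPL7D (adjusted p-values of 0.000600 to 0.0366 from limma). TaSPL15D, the gene with the smallest of these p-values, had 1.59 and 1.83 TPM in vernalized axillary bud, against 0.382 and 0.417 TPM in axillary bud. A relation of these genes to FT1 or FT2 was not tested.

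**Figure D4:**
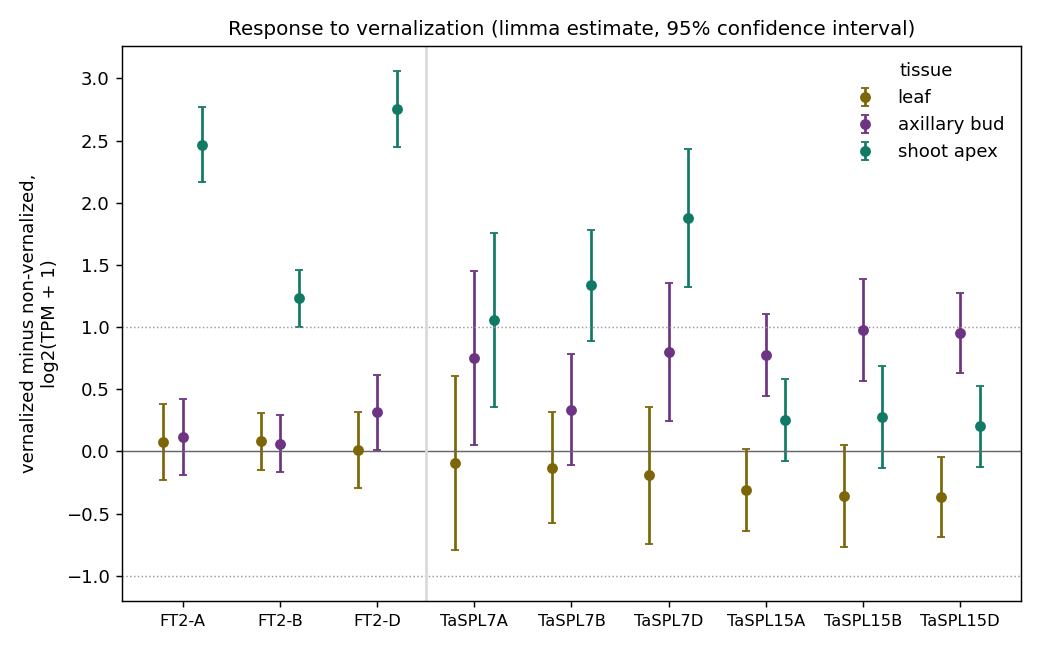
Difference between vernalized and non-vernalized libraries of each tissue on the log2(TPM + 1) scale for the FT2 homoeologues and the TaSPL7 and TaSPL15 genes. Points are limma estimates, bars are 95% confidence intervals, and dotted lines mark a 2-fold difference. The FT2 estimates are 1.23 to 2.75 in shoot apex and at most 0.31 in leaf and axillary bud. FT1 is not drawn because it did not pass the filter.

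The genes most like FT2 were sought by Pearson's r of log2(TPM + 1) with the summed FT2 level over the 12 libraries, which form only 6 groups and are given no p-value. TraesCS2A02G261200 was the nearest (r = 0.996), with 5.36 and 3.91 TPM in vernalized shoot apex, against 0 TPM in both shoot apex libraries, and 0.151 and 0.109 TPM in vernalized axillary bud. TraesCS4D02G334800 followed (r = 0.995), at 30.6 and 23.9 TPM in vernalized shoot apex, against 0 and 0.0282 TPM in shoot apex. Both carried the trace in vernalized axillary bud that FT2 showed, and both were at 0 in every leaf library, vernalized or not. Of the 60323 other tested genes, 18 had r above 0.99 and 122 above 0.9. The deposited identifiers carry no gene names, so nothing is said of what these genes are. No such likeness is given for FT1, which was at 0 in 10 libraries.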

How the data were processed

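The authors trimmed reads with fastp 0.21.0, mapped them to IWGSC RefSeq v1.0 (hisat2), sorted alignments with SAMtools 1.3.1 and calculated TPM with TPMCalculator. The TPM deposited by the authors, 1 file per library, were used. The count-based analysis of the authors was not used here. Each library sums to 1000000 TPM, the depth behind a value was not used, and 0 pairs of libraries were identical. The reference table at hand (IWGSC CS RefSeq v2.1) held 0 of the identifiers, so names of FT1 and FT2 follow the given identifier list, those of TaSPL7 and TaSPL15 the study's list, and tissue labels could not be checked against marker genes. Probe sequences were copied from the study's primer table.

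R 4.3.3 with limma 3.58.1 and Python 3.11.15 with numpy 2.4.6, pandas 2.3.3 and matplotlib 3.10.9 were used. The model had 1 coefficient per group, no term for the replicate number and moderation with a trend, on log2(TPM + 1), and 12 comparisons were made, each two-sided and adjusted over all tested genes. The methods state a p-value under 0.01 and 2-fold without naming an adjustment, and the unadjusted rule was run as an alternative. The fit was checked on simulated data, with changes planted only in genes whose mean over the libraries passed 2 TPM. The FT1 and FT2 homoeologues lay below that mean, so the check did not cover genes as low as these. Shares of homoeologues were computed where their sum exceeded 1 TPM. The other alternatives were a pseudocount of 0.1, no filter (85488 genes), a mean above 5 TPM (39431 genes), median-of-ratios rescaling, a replicate block, no trend, each tissue alone and leaving out each of the 12 libraries. Named genes are the members, TaSPL7 and TaSPL15, and the 2 genes nearest to FT2 by r. The same rule for FT1 was not applied because FT1 was at 0 in 10 libraries. Members and lists were chosen with earlier results of these data known.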

Additional observations from a re-analysis of the deposited data

Results flagged for a closer look

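The response of FT2 differed between tissues by the test of the difference itself. The FT2 genes entered this test only through vernalized shoot apex, so the number of calls carries no weight of its own. The response in leaf minus that in shoot apex was -2.74 for FT2-D, -2.39 for FT2-A and -1.15 for FT2-B on the log2(TPM + 1) scale. The response in axillary bud minus that in shoot apex was -2.44 for FT2-D, -2.35 for FT2-A and -1.17 for FT2-B. The groups of 2 libraries are too small to test a single deviating library.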

How the results depend on the processing

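The FT2 calls in shoot apex, and those of shoot apex against the other tissues in response and in level after vernalization, kept their direction and side of the threshold under every alternative in which the gene could be tested. With the filter raised to a group mean of 5 TPM only FT2-D entered the test, so the calls in these 5 comparisons numbered 1 of 6 members in place of 3. With a pseudocount of 0.1, 1 member, FT2-D, was also called in axillary bud, in the difference of responses between leaf and axillary bud, and between vernalized leaf and vernalized axillary bud, where 0 were called otherwise. Leaving out each library in turn left the shoot apex response between 2.57 and 2.94 for FT2-D, 2.30 and 2.64 for FT2-A, and 1.20 and 1.26 for FT2-B, and the calls at 3 members. Without the filter the adjusted p-values in shoot apex were at most 2.05e-05, and over all alternatives at most 0.0347. Rescaling by the median of ratios gave a median response of all tested genes of -0.02 in leaf (-0.90 as deposited), 0.05 in axillary bud (0.29) and 0 in shoot apex (-0.06), where FT2-D, FT2-A and FT2-B then rose by 2.92, 2.63 and 1.35. The replicate number does not mark paired samples in the labels. Differences between replicates correlated across vernalization at 0.74 in shoot apex, 0.01 in axillary bud and -0.07 in leaf, and with the replicate block 3 members were still called in shoot apex (adjusted p of 3.50e-06 to 0.000121). Of the 2 genes nearest to FT2, 1 was among the 2 nearest with a pseudocount of 0.1 and 1 after rescaling. Rescaling also moved the calls after vernalization, with 30.3% of tested genes lower and 25.8% higher in leaf against shoot apex (35.7% and 18.4% as deposited), and 5.49% and 4.28% in axillary bud against shoot apex (2.64% and 13.5%). The sequencing depth behind the TPM was not used here, which limits every statement on FT1.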

Other observations

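With limits chosen after the FT2 values were seen, above 1 TPM in both vernalized shoot apex libraries and under 0.5 TPM in the other 10, 63 of the 107891 genes (0.0584%) qualified, among them the 3 FT2 homoeologues, which the limits were bound to include. By mean level in vernalized shoot apex, FT2-D ranked 8, FT2-A 11 and FT2-B 52 among the 63. They comprised 24 genes of the A, 15 of the B and 23 of the D subgenome and 1 without an assigned chromosome, with the FT2 homoeologues included. The share of each subgenome among all genes was not counted, so no preference can be read from these numbers. The same limits gave 694 genes for vernalized leaf and 771 for leaf, 266 for vernalized axillary bud and 21 for axillary bud, and 31 for shoot apex.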
